A study of Mus musculus with 6 samples.

Results

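The PPAR, PGC-1 and ERR regulators were followed as a list of 10 genes named by symbol: the receptors *Ppara*, *Ppard* and *Pparg*, their dimer partners *Rxra* and *Rxrg*, the orphan receptors *Esrra* and *Esrrg*, the coactivators *Ppargc1a* and *Ppargc1b*, and the corepressor *Nrip1*. All 10 were present among the 55401 counted genes and all 10 were among the 16807 genes with enough counts to be tested. RNA-seq was run on whole subcutaneous white fat (scWAT) of 3 YT-FF mice, which carry floxed *Yap1* and *Taz* alleles and no Cre, and from 3 YT-AKO mice, which carry the same floxed alleles plus *Adipoq*-Cre. All mice were 8-week-old males kept at room temperature. The sample labels call the YT-FF mice WT, and the mice descend from C57BL/6 and mixed C57BL/6 and 129 lines. *Adipoq*-Cre acts in mature adipocytes, so the other cells of the tissue are not targeted, and the comparison asks how transcripts in the whole tissue differ when adipocytes lose YAP and TAZ.

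PPARs bind DNA as dimers with an RXR and switch on genes of lipid uptake, storage and oxidation in response to fatty acids. PPARγ is the master regulator of fat cell formation, and PPARα drives the burning of fatty acids. The ERRs bind related sites without a known natural ligand, and together with the coactivators PGC-1α and PGC-1β (*Ppargc1a* and *Ppargc1b*) they switch on mitochondrial genes, while RIP140 (*Nrip1*) holds both receptor groups back. PGC-1α is known in brown and beige fat for its induction by cold and adrenergic signals, upstream of *Ucp1*.

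For most of these regulators the difference between the genotypes did not pass the test, as for most tested genes. Of 18 genes known as PPARγ targets 4 rose and 0 fell, and of 19 tested PPARα targets 9 rose and 2 fell. Of 17 known PGC-1 and ERR targets 9 rose and 0 fell. Among all tested genes, 12.6% were called higher and 9.01% lower. *Esrra* was the single regulator of the 10 called, against 21.6% of all tested genes, and it was 1.53-fold higher in the libraries labelled YT-AKO (95% interval 1.17 to 1.99, n = 3 against 3). *Rxrg* lay 1.86-fold higher (1.21 to 2.88) and *Esrrg* lay at 0.352 of the YT-FF level (0.141 to 0.872), each without overlap between the groups, as for 51.5% of all tested genes, but neither passed the test. *Ppargc1a*, by contrast, lay at 1.02 of the YT-FF level (0.601 to 1.71), and *Pparg* at 1.23 (0.748 to 2.01).

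The libraries held 17740987 to 21838493 counted fragments. The deposited values are raw counts per gene, and levels are given below as CPM, counts scaled to library size and adjusted between libraries with TMM factors. Changes are log2 fold changes from the quasi-likelihood test of edgeR, Benjamini-Hochberg adjusted over the 16807 tested genes, and a gene was called at an adjusted p under 0.05. *Yap1* was lower in the libraries labelled YT-AKO, with a log2 fold change of -0.98 (edgeR quasi-likelihood test, Benjamini-Hochberg adjusted p = 0.0179), but *Wwtr1*, which encodes TAZ, was higher, with a log2 fold change of 0.89 (edgeR, adjusted p = 0.0220). Counts are summed over all exons and do not show the loss of single exons, so the *Wwtr1* level does not show whether its floxed alleles were cut. Every direction below follows the genotype labels, with *Yap1* lower and *Wwtr1* higher under them. The library labelled YT-AKO 2 stood apart, with a TMM factor of 0.777 against 0.954 to 1.16 in the other 5. It had the most counted fragments but the fewest genes with a count, 20501 against 22810 to 24576 in the other 5. The part of this in the high and low values of YT-AKO 2 given below was not tested. Across tested genes, Spearman's rho of log2 fold change with log2 exon length was -0.376. Scaling by library totals alone moved the median log2 fold change of all genes from -0.02 to -0.34, and log2 fold changes near 0 changed sign with it. Without YT-FF 1 the test called 0 of all genes tested, and without YT-FF 2 it called 2, both lower (4665 and 4507 genes had an unadjusted p under 0.05), so calls lost in those 2 fits are not particular to the genes described here.

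The adipocyte markers fixed for the tissue were present, with a summed level of 5000 to 6890 CPM in YT-FF and 6720 to 8500 CPM in the libraries labelled YT-AKO, and 0 of 5 were called. All 5 thermogenic markers rose, from a summed 147 to 216 CPM to 1590 to 3440 CPM, with log2 fold changes of 3.06 to 5.90. The brown depot marker *Zic1* was at 0 counts in all 6 libraries, and *Lhx8* and *Meox2*, the other two markers of that list, were not called. Skeletal muscle markers varied within the groups, from 127 to 457 CPM in YT-FF and from 216 to 3340 CPM in the libraries labelled YT-AKO, where 1 of 9 tested (*Acta1*) was called. In whole tissue, fewer cells of a type and less RNA per cell cannot be told apart.

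The promoters of 3 regulators are shown because they stand at the centre of the comparison: *Esrra*, which was called, *Rxrg*, which was higher without overlap, and *Ppargc1a*, which was neither. RefSeq promoter windows (GRCm38.p6, 250 bases before to 50 after a start site) were matched by symbol for 9 of the 10 genes, 17 windows in all, and only bases upstream of the start are printed, 5′ to 3′ on the strand of the gene. Capitals mark a motif found by an exact search of both strands.
*Esrra*, chr19:6921841-6922058, minus strand: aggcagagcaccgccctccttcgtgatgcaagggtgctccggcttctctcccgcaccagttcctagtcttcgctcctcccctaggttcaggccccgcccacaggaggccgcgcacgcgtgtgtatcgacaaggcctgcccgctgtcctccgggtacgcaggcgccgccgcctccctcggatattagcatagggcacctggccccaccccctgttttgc
*Rxrg*, chr1:167618015-167618264, plus strand, upstream of one of its 2 RefSeq starts: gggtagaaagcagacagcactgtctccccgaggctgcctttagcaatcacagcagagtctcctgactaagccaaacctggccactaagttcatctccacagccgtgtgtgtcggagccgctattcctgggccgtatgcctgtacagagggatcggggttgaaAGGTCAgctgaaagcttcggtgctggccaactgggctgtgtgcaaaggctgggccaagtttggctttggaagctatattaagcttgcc
*Ppargc1a*, chr5:51567727-51567975, minus strand: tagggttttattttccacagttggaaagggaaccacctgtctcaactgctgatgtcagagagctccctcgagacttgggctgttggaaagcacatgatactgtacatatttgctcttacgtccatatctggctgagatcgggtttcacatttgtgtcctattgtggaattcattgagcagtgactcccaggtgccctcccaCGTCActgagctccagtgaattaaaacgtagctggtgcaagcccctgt

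In the *Rxrg* window the capitals mark AGGTCA, the core hexamer that nuclear receptors bind, which began 88 bases before the start. This hexamer, on either strand, was in 16.3% of 32851 RefSeq promoter windows, and among the 10 regulators it was also found in windows of *Pparg* and *Rxra*. In the *Ppargc1a* window the capitals mark the short form of the cAMP response element, TGACG, which reads CGTCA on the printed strand and lay 49 bases before the start. That short form was in 20.8% of all windows, and *Ppara* and *Ppard* held it too. The *Esrra* stretch held none of the 6 motifs searched, and the longer forms searched were in no window of the 9 genes: the ERR element TCAAGGTCA (0.423% of all windows), the PPAR element DR1, which repeats AGGTCA after a spacer of 1 base (0.0396%, which also counts as AGGTCA) and the full cAMP element TGACGTCA (1.79%, which also counts as TGACG). The core GGAATG bound by TEAD factors, the DNA-binding partners of YAP and TAZ, was in 14.7% of all windows and in a window of *Esrrg*. These matches describe letters in these windows and are not evidence of binding.

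**Figure D1:**
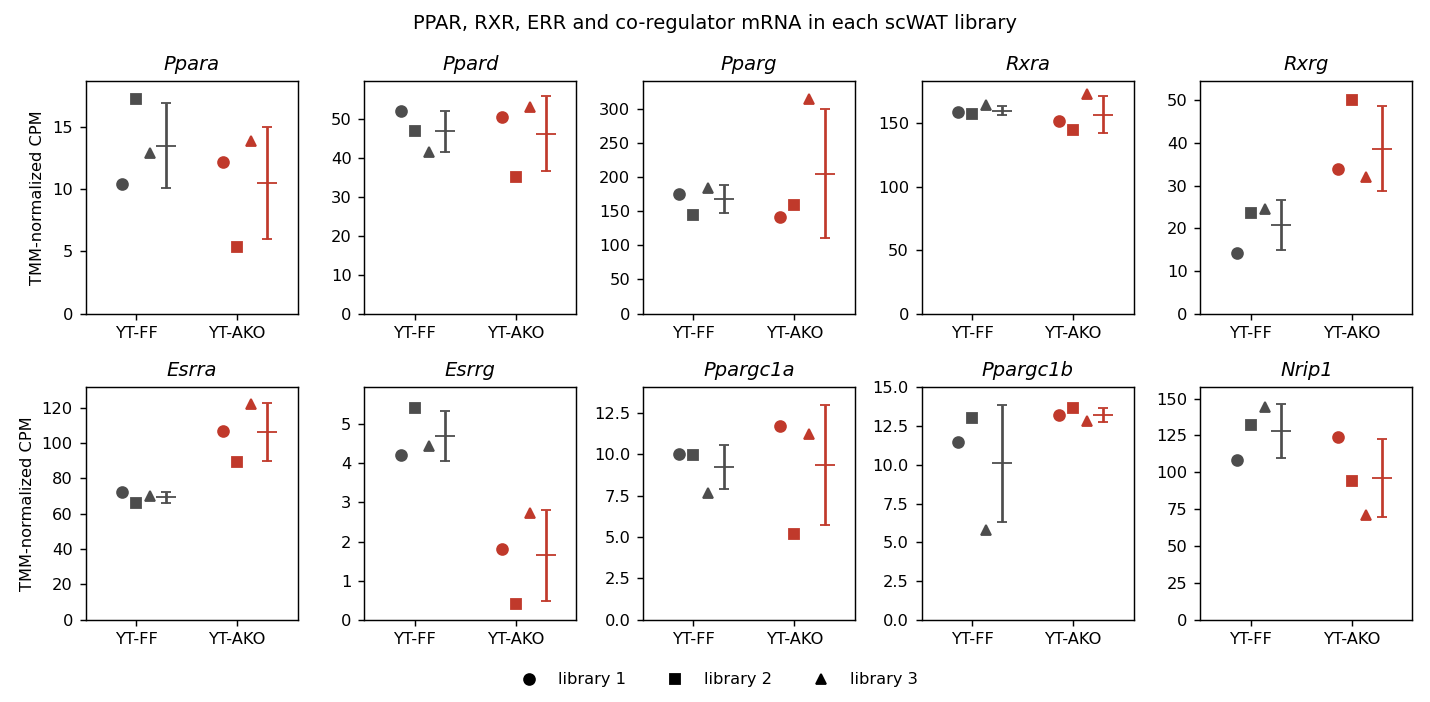
Level of each of the 10 regulators in CPM (vertical axes, linear from 0, separate for each gene) in YT-FF (grey) and in the libraries labelled YT-AKO (red), with 1 point per library and the mean ± SD of 3 libraries beside them. The groups are apart for *Rxrg*, *Esrra* and *Esrrg* and overlap for the other 7 genes.

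In CPM, the groups did not overlap for 3 of the 10 regulators, against 51.5% of all tested genes, and 2 of these were higher (25.7% of all tested genes) and 1 lower (25.8%). The test called 1 of 10, *Esrra*, against 21.6% of all tested genes in either direction, 12.6% higher and 9.01% lower. By the threshold of the study, an adjusted p under 0.01 with a log2 fold change beyond 1, 0 of the 10 passed with edgeR (0.125% of all tested genes) and 0 with DESeq2 (11.9%), the tool named in its methods. At an adjusted p under 0.05, DESeq2 called 32.3% of all tested genes, and 3 of the 10 were called: *Esrra* and *Rxrg* higher and *Esrrg* lower. The median log2 fold change of the 10 was 0.00, and that of all tested genes was -0.02.

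*Pparg* (ENSMUSG00000000440, mm10 chr6:115360951-115490399) was the most abundant of the PPARs. It measured 175, 144 and 184 CPM in YT-FF 1 to 3 and 142, 159 and 314 CPM in the libraries labelled YT-AKO 1 to 3. YT-AKO 3 was far above all others, and the remaining 2 lay at or below the middle of the YT-FF range. Its log2 fold change was 0.29 (SE 0.307, 95% interval -0.42 to 1.0, edgeR adjusted p = 0.496 with Benjamini-Hochberg), and it was -0.14 without YT-AKO 3. *Ppard* (ENSMUSG00000002250, chr17:28232700-28301474), the broadly expressed PPARδ, measured 52.0, 46.9 and 41.5 CPM in YT-FF and 50.4, 35.1 and 52.9 CPM in YT-AKO. YT-AKO 2 lay below the YT-FF range, YT-AKO 3 just above it and YT-AKO 1 within it. The log2 fold change was -0.02 (95% interval -0.47 to 0.43), 0.29 with a correction for gene length and 0.14 without YT-AKO 2.

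*Ppara* (ENSMUSG00000022383, chr15:85734983-85802819) was the least abundant PPAR, with 10.4, 17.2 and 12.9 CPM in YT-FF and 12.2, 5.37 and 13.9 CPM in the libraries labelled YT-AKO. Only YT-AKO 2 lay below the YT-FF range. This gave a log2 fold change of -0.36 (SE 0.367, 95% interval -1.21 to 0.49, edgeR adjusted p = 0.480 with Benjamini-Hochberg), and -0.05 without YT-AKO 2. Among the 3 PPARs, *Pparg* made up 86.0%, 82.0% and 87.5% of the summed TPM (counts scaled by gene length within a library) in YT-FF and 83.0%, 89.9% and 90.9% in YT-AKO. These ranges overlapped, and the group means were 85.2% ± 2.87 and 87.9% ± 4.30 (SD, n = 3, exact two-sided permutation test p = 0.4, adjusted 0.5 over 5 within-library ratios).

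The RXRs are the shared partners of the PPARs, the liver X receptors and the thyroid and retinoic acid receptors. *Rxra* (ENSMUSG00000015846, chr2:27676440-27762957), the most abundant of them, measured 159, 157 and 164 CPM in YT-FF and 152, 145 and 173 CPM in the libraries labelled YT-AKO. The values were tightly grouped in both genotypes and overlapped. The log2 fold change of *Rxra* was -0.03, with the narrowest 95% interval among the 10 genes (-0.37 to 0.32), and it was 0.22 with the length correction and -0.35 with library totals alone.

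*Rxrg* (ENSMUSG00000015843, chr1:167598384-167639623) encodes RXRγ, the RXR with the most restricted tissue range. It measured 14.1, 23.6 and 24.6 CPM in YT-FF (330, 537 and 477 counts) and 33.8, 50.1 and 32.0 CPM in YT-AKO (582, 849 and 542 counts). All 3 libraries labelled YT-AKO exceeded the YT-FF range, and YT-AKO 2 was the highest of the 6. Its log2 fold change was 0.90 (SE 0.271, 95% interval 0.27 to 1.53), and its adjusted p was 0.0506 with edgeR and Benjamini-Hochberg adjustment. DESeq2 gave an adjusted p of 0.0177 and limma-voom 0.0476, both with Benjamini-Hochberg. Within edgeR the adjusted p was 0.0482 when 10 counts were required in every library and 0.0179 with no filter, so the call depends on the tool and on the filter. The log2 fold change was 0.66 with the length correction (edgeR adjusted p = 0.112) and 0.55 with library totals alone (edgeR adjusted p = 0.117). Without YT-AKO 2 the log2 fold change was 0.67 and without YT-FF 1 it was 0.68.

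*Rxrb*, the ubiquitous RXR, is not one of the 10 genes but completes the family, and it rose by a log2 fold change of 0.53 (edgeR adjusted p = 0.0481 with Benjamini-Hochberg). The share of *Rxrg* in the summed TPM of the 3 RXRs was 13.1%, 21.0% and 20.5% in YT-FF and 25.2%, 31.3% and 22.6% in the libraries labelled YT-AKO. The shares did not overlap, with means of 18.2% ± 4.40 and 26.4% ± 4.46 (SD, n = 3, exact two-sided permutation test p = 0.1, the smallest that 3 against 3 allow, adjusted 0.25 over the 5 ratios). *Rxrg* has 2297 exon bases and *Rxra* 6303, and with the length correction the difference in share went from 8.19 to 3.38 percentage points (exact permutation p = 0.5). The part of gene length in this shift was not tested further.

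**Figure D2:**
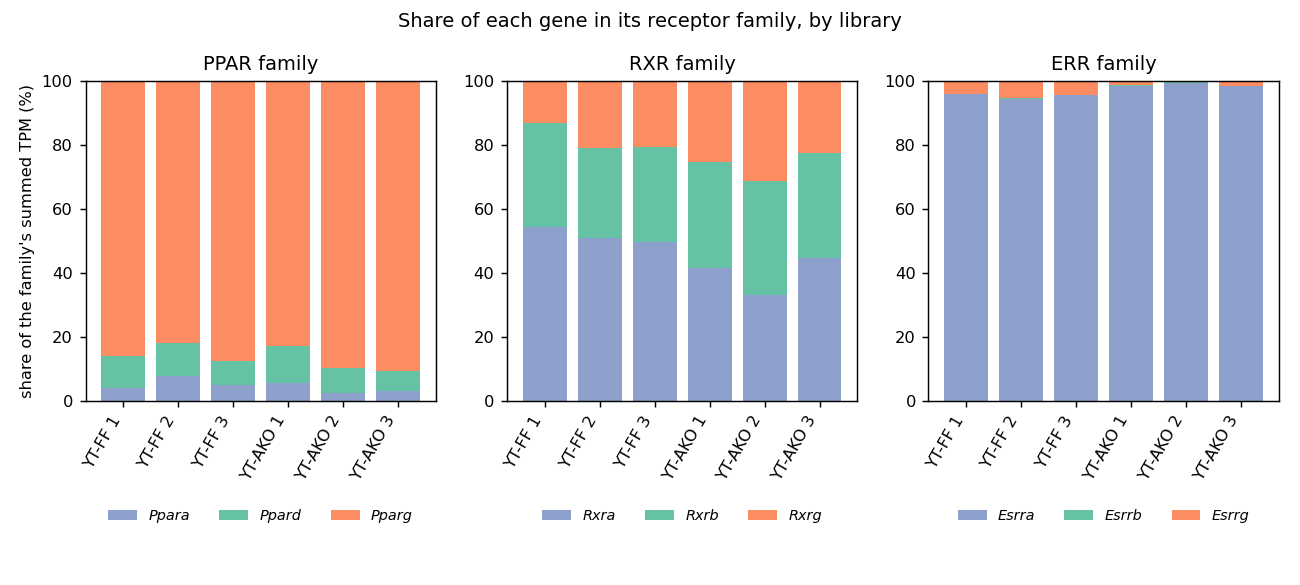
Share of each gene in the summed TPM of its receptor family (vertical axis, percent, stacked to 100) in each of the 6 libraries, for PPARs, RXRs and ERRs. *Pparg* and *Esrra* fill most of their families in every library, and the *Rxrg* share is larger and the *Esrrg* share smaller in all 3 libraries labelled YT-AKO.

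*Esrra* (ENSMUSG00000024955, chr19:6910977-6921840) encodes ERRα, the main receptor partner of the PGC-1 coactivators on genes of oxidative phosphorylation. It measured 72.2, 65.9 and 69.9 CPM in YT-FF (1695, 1500 and 1358 counts) and 107, 89.3 and 122 CPM in the libraries labelled YT-AKO (1836, 1515 and 2068 counts). The groups did not overlap, the YT-FF libraries lay close together, and YT-AKO 2 was the lowest of its group. *Esrra* rose by a log2 fold change of 0.61 (SE 0.164, 95% interval 0.23 to 0.99, edgeR adjusted p = 0.038 with Benjamini-Hochberg). It shares 3.72% of its exon bases with *Mir6990* and *Trmt112*, and fragments there were not counted. The call was lost with library totals alone (log2 fold change 0.30, edgeR adjusted p = 0.31) and in 5 of the 6 fits that leave out a library, in which the log2 fold change stayed between 0.51 and 0.72. It held only without YT-AKO 2 among those (edgeR adjusted p = 0.00502, Benjamini-Hochberg).

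*Esrrg* (ENSMUSG00000026610, chr1:187608791-188214885) encodes ERRγ, which is abundant in brown fat, heart and oxidative muscle. In YT-FF it had 99, 123 and 86 counts (4.22, 5.41 and 4.43 CPM), and in the libraries labelled YT-AKO 31, 7 and 46 counts (1.80, 0.413 and 2.72 CPM). Every YT-AKO value was below every YT-FF value, and YT-AKO 2 was lowest by far. Its log2 fold change was -1.51 (SE 0.567, 95% interval -2.82 to -0.20, edgeR adjusted p = 0.087 with Benjamini-Hochberg), the widest interval of the 10. Without YT-AKO 2 it was -1.05 with an adjusted p of 0.033 (edgeR, Benjamini-Hochberg), and DESeq2 on all libraries gave 0.0301. The summed skeletal muscle markers were highest in YT-AKO 1, a library with a low *Esrrg* level. The summed thermogenic markers were highest in YT-AKO 2, where *Esrrg* was lowest, but not every marker of that list was highest there. The part of these cells in the *Esrrg* level was not tested. *Esrrg* made up 3.99%, 5.50% and 4.30% of the summed TPM of the ERRs in YT-FF and 1.18%, 0.327% and 1.56% in YT-AKO, a difference of means of -3.57 percentage points (exact two-sided permutation test p = 0.1, adjusted 0.25). *Esrrb*, the remaining ERR, was below the filter, at 0.465 CPM or less in each library.

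*Ppargc1a* (ENSMUSG00000029167, chr5:51454250-51567726) was a low-abundance transcript. YT-FF libraries had 235, 227 and 149 counts of it (10, 9.98 and 7.67 CPM), and the libraries labelled YT-AKO had 201, 88 and 190 (11.7, 5.19 and 11.2 CPM). YT-AKO 1 and 3 lay above all YT-FF libraries and YT-AKO 2 below all of them. The log2 fold change was 0.02 (SE 0.326, 95% interval -0.73 to 0.78, edgeR adjusted p = 0.965 with Benjamini-Hochberg), so neither a rise nor a fall of up to about that size could be told from 0. Without YT-AKO 2 the log2 fold change was 0.31 (edgeR adjusted p = 0.251, Benjamini-Hochberg), and library totals alone gave -0.27. Its direction therefore turned with the scaling and with the library left out.

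*Ppargc1b* (ENSMUSG00000033871, chromosome 18) encodes PGC-1β, which shares the ERR partners of PGC-1α. It measured 11.5, 13.0 and 5.82 CPM in YT-FF and 13.2, 13.7 and 12.8 CPM in YT-AKO. The 3 libraries labelled YT-AKO were nearly alike, and YT-FF 3 was the low one of the controls. It had a log2 fold change of 0.39 (95% interval -0.30 to 1.08), 0.12 without YT-FF 3 and 0.05 with library totals alone. Within libraries, the log2 ratio of *Ppargc1a* to *Ppargc1b* in TPM was -0.919, -1.10 and -0.325 in YT-FF and -0.900, -2.13 and -0.909 in YT-AKO. The ratios overlapped, and their means were -0.78 ± 0.41 and -1.31 ± 0.71 (SD, n = 3, exact two-sided permutation test p = 0.6, adjusted 0.6).

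*Nrip1* (ENSMUSG00000048490, chr16:76287400-76373827), the corepressor RIP140, measured 108, 132 and 144 CPM in YT-FF and 124, 93.8 and 70.9 CPM in the libraries labelled YT-AKO. YT-AKO 2 and 3 lay below the YT-FF range and YT-AKO 1 within it. The log2 fold change was -0.41 (SE 0.230, 95% interval -0.95 to 0.12, edgeR adjusted p = 0.211 with Benjamini-Hochberg). *Nrip1* has the longest exons of the 10 genes, 11457 bases, and its log2 fold change was 0.08 with the length correction. The log2 ratio of *Ppargc1a* to *Nrip1*, coactivator over corepressor, was -2.63, -2.93 and -3.43 in YT-FF and -2.61, -3.38 and -1.86 in YT-AKO. The groups overlapped and the means differed by 0.383 (exact two-sided permutation test p = 0.4, adjusted 0.5), or by 0.00575 without YT-AKO 3.

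**Figure D3:**
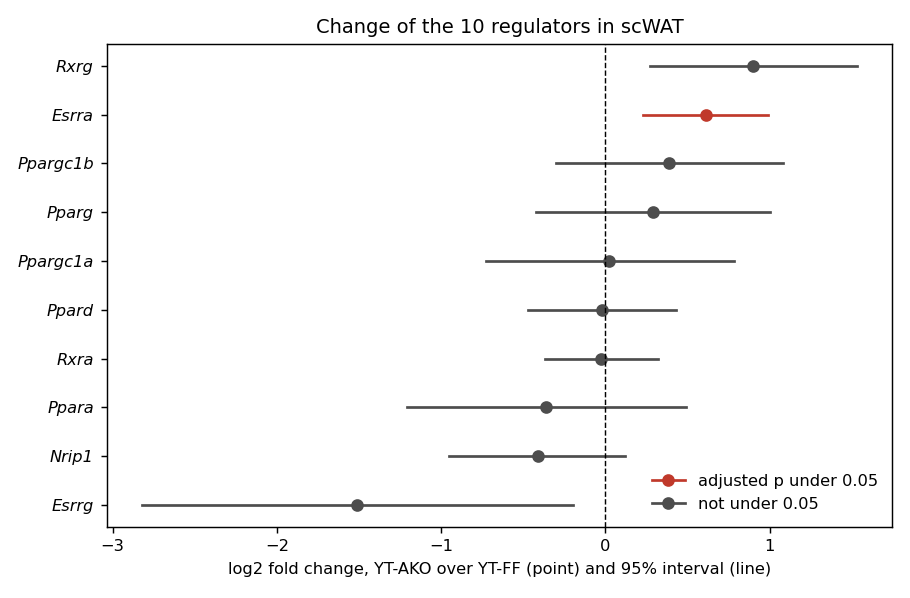
Log2 fold change of the 10 regulators in the libraries labelled YT-AKO over YT-FF (horizontal axis) with its 95% interval, from edgeR on 3 against 3 libraries, ordered by size. *Esrra* (red) is the gene with an adjusted p under 0.05, and *Rxrg* and *Esrrg* are the other two whose interval leaves out 0.

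**Figure D4:**
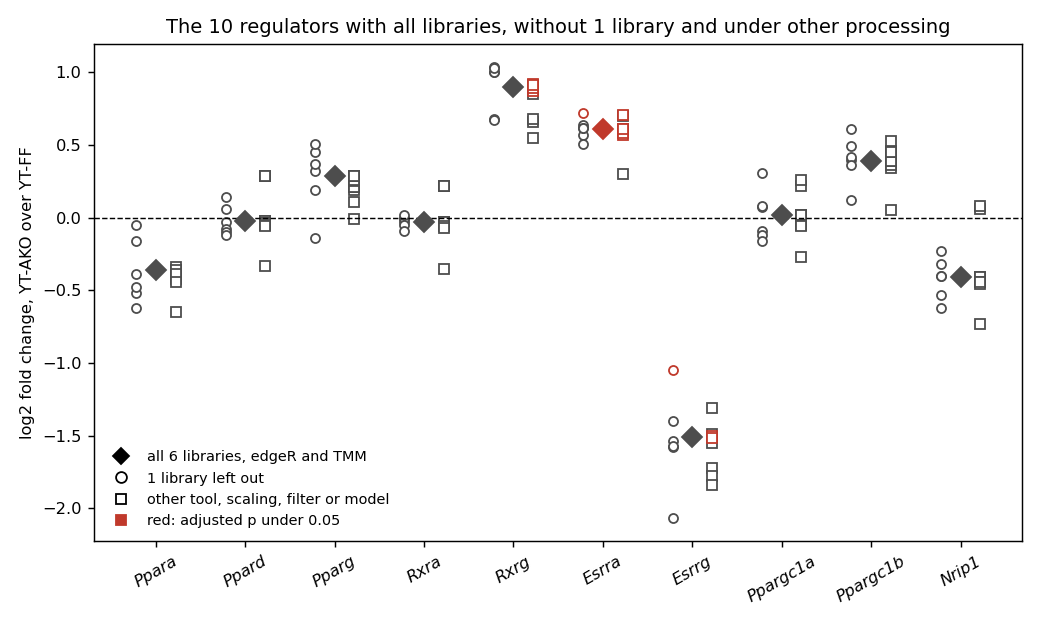
Log2 fold change of each regulator (vertical axis) with all libraries and the main processing (diamond), with 1 library left out (circles) and under other tools, scalings, filters or models (squares), red where the adjusted p is under 0.05. *Esrra* and *Rxrg* stay above 0 and *Esrrg* below 0 in all of these, and *Ppard*, *Pparg*, *Rxra*, *Ppargc1a* and *Nrip1* cross 0.

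Levels of different genes were compared per length, in TPM. In YT-FF the order of mean levels was *Pparg* (215 ± 19.5 TPM), *Rxra* (96.3 ± 2.42), *Esrra* (59.7 ± 2.95), *Nrip1* (42.4 ± 5.35), *Rxrg* (34.2 ± 9.31), *Ppard* (23.7 ± 3.43), *Ppara* (13.4 ± 3.80), *Ppargc1b* (9.71 ± 3.96), *Ppargc1a* (5.34 ± 0.989) and *Esrrg* (2.87 ± 0.488; SD, n = 3). The library values of neighbours overlapped for *Nrip1* and *Rxrg*, *Rxrg* and *Ppard*, *Ppara* and *Ppargc1b*, and *Ppargc1b* and *Ppargc1a*, so these pairs were not told apart. In the libraries labelled YT-AKO *Pparg* was again first, at 173 ± 103 TPM, and *Ppargc1a* (3.65 ± 1.97) and *Esrrg* (0.706 ± 0.545) again last, while *Rxrg* (39.1 ± 1.75) stood above *Nrip1* (20.4 ± 8.47) with no overlap. TPM values of YT-AKO 2 were low for most of the 10 genes, so TPM was used here to order genes within a group and not to compare the genotypes.

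The genes whose levels followed *Pparg* most closely over the 6 libraries, by Pearson correlation of log2 CPM, were *Gm21887* (0.975), *Bfsp1* (0.974) and *Aldh1a2* (0.965). Each peaked, like *Pparg*, in YT-AKO 3, and 38 genes had a correlation above 0.9. *Ppargc1a* was followed by *Sfrp2* (0.997), *Rab7b* (0.988) and *Kat2a* (0.982), each lowest in YT-AKO 2, and 213 genes had a correlation above 0.9. The 6 points share their libraries and 2 genotypes, and these values are a description.

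All gene lists from here on, cell markers included, are read against the 12.6% of all tested genes called higher and the 9.01% called lower. Of 18 genes known as PPARγ targets in adipocytes, 4 rose and 0 fell, and the median log2 fold change was 0.40. *Fabp4*, the fatty acid binding protein of fat cells, went from 4340, 4070 and 7200 CPM in YT-FF to 9160, 20200 and 10200 CPM in the libraries labelled YT-AKO, with a log2 fold change of 1.34. *Gk*, the glycerol kinase, rose by 1.32, and the lipases *Lipe* and *Pnpla2* by 0.84 and 0.79 (edgeR adjusted p of 0.0238 to 0.0477 for these 4, Benjamini-Hochberg). *Cd36*, the fatty acid transporter, and *Lpl*, the lipoprotein lipase, each had a log2 fold change of 0.03 and were not called. With the length correction 2 of the 18 were called higher, and with library totals alone 0, with a median of 0.09.

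The PPARα list of fatty acid oxidation genes moved further. Of 20 genes, 19 were tested (*Fgf21* was below the filter), 9 rose and 2 fell, and the median log2 fold change was 1.0, or 0.72 with the length correction. *Plin5*, a lipid droplet protein that contacts mitochondria, measured 18.2, 21.3 and 28.7 CPM in YT-FF and 118, 133 and 108 CPM in the libraries labelled YT-AKO, a log2 fold change of 2.40 (edgeR adjusted p = 0.00729, Benjamini-Hochberg). *Fabp3*, the fatty acid binding protein of heart and muscle, rose by 4.20, from 2.13, 1.27 and 19.2 CPM to 54.2, 207 and 148 CPM. Its level was lowest, among the YT-AKO libraries, in YT-AKO 1, where the summed muscle markers were highest. The part of muscle cells in the *Fabp3* level was not tested. *Acot1*, an acyl-CoA thioesterase, rose by 2.44, though it is nearly identical to *Acot2* and its counts are uncertain, and *Slc25a20*, the carnitine carrier of the inner mitochondrial membrane, rose by 1.49. *Vnn1*, a pantetheinase, was among those that fell, with a log2 fold change of -1.01 (edgeR adjusted p = 0.0486, Benjamini-Hochberg).

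Of 17 mitochondrial genes known as PGC-1 and ERR targets, 9 rose, 0 fell, and the median log2 fold change was 1.12 (1.04 with the length correction). *Cox5b* and *Cox4i1*, subunits of cytochrome c oxidase, rose by 2.33 and 2.12, *Cycs*, cytochrome c, by 2.03, and *Sdhb*, a subunit of succinate dehydrogenase, by 1.75 (edgeR adjusted p of 0.0146 to 0.0207, Benjamini-Hochberg). *Cycs* measured 70.8, 81.4 and 113 CPM in YT-FF and 333, 442 and 309 CPM in the libraries labelled YT-AKO, with no overlap. *Cox5b* measured 246, 593 and 271 CPM in YT-AKO 1 to 3, *Cox4i1* 1130, 3090 and 1190 CPM, and *Sdhb* 473, 895 and 504 CPM. These genes were highest in YT-AKO 2, as was *Cycs*. The factors of this list that act on mitochondrial genes as regulators were not called. *Tfam* had a log2 fold change of 0.40, *Nrf1* of -0.10 and *Gabpa* of -0.37. *Perm1*, a muscle-enriched gene induced by PGC-1 and ERR, had 0.24. The thermogenic markers rose in the same 3 libraries as these targets, and the part of the added thermogenic adipocyte transcripts in the rise of the lists was not tested.

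**Figure D5:**
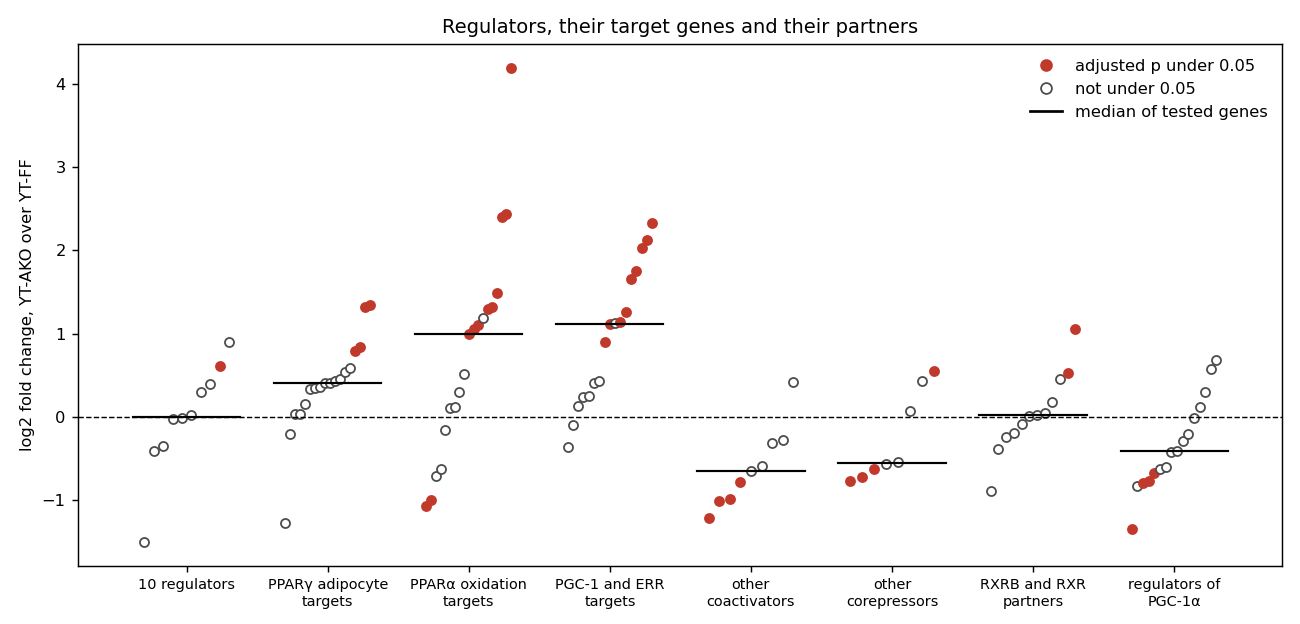
Log2 fold change (vertical axis) of the 10 regulators and of each tested gene in 7 lists of targets, partners and upstream factors, filled red where the adjusted p is under 0.05, with the median of each list as a line. The 3 lists of target genes have medians of 0.40 to 1.12, and the regulators have a median of 0.00.

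Among the other coactivators the calls were in the opposite direction. Of 9 genes, 0 rose (12.6% of all tested genes) and 4 fell (9.01%), with a median log2 fold change of -0.66. *Ep300* (-1.22) and *Crebbp* (-0.79), histone acetyltransferases, and *Ncoa2* (-1.02) and *Ncoa3* (-0.99), p160 coactivators of nuclear receptors, were the 4 (edgeR adjusted p of 0.0190 to 0.0376, Benjamini-Hochberg). *Ncoa3* measured 132, 122 and 91.7 CPM in YT-FF and 63.1, 52.8 and 58.0 CPM in the libraries labelled YT-AKO. *Prdm16*, the beige fat coregulator, had a log2 fold change of -0.28 (95% interval -0.85 to 0.29) and was not called. With the length correction 1 of 9 was called lower and the median was -0.23.

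Of 8 other corepressors, 3 fell and 1 rose, with a median of -0.56. *Ncor1* (-0.78), the nuclear receptor corepressor, its partner *Tbl1xr1* (-0.63) and the scaffold *Sin3a* (-0.73) fell, and the deacetylase *Hdac3* rose by 0.55 (edgeR adjusted p of 0.0377 to 0.0483, Benjamini-Hochberg). With the length correction 0 of the 8 were called in either direction, and the median was -0.18.

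Among 13 other receptors of these families and partners of RXR, 12 were tested, 2 rose, 0 fell, and the median was 0.02. *Nr1h3*, the liver X receptor LXRα, rose by 1.06, from 79.0, 83.9 and 102 CPM in YT-FF to 153, 240 and 161 CPM in the libraries labelled YT-AKO (edgeR adjusted p = 0.0226, Benjamini-Hochberg). *Rxrb* was the other. The thyroid hormone receptors *Thra* (-0.20) and *Thrb* (-0.09) and the retinoic acid receptor *Rara* (0.01) were not called. With the length correction 1 of the 12 was called higher.

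Of 16 genes known to act on *Ppargc1a* or on the PGC-1α protein, 0 rose and 4 fell, with a median of -0.42. *Mef2c* (-1.35) and *Creb1* (-0.68) are transcription factors that act on the *Ppargc1a* promoter, the latter a factor that binds cAMP response elements, *Irf4* (-0.80) is a thermogenic partner of PGC-1α, and *Rb1* (-0.77) encodes the retinoblastoma protein, a repressor of *Ppargc1a* (edgeR adjusted p of 0.0177 to 0.0259, Benjamini-Hochberg). *Mef2c* measured 104, 114 and 84.0 CPM in YT-FF and 45.6, 30.3 and 42.8 CPM in the libraries labelled YT-AKO. *Adrb3*, the adrenergic receptor of adipocytes, had a log2 fold change of 0.29 (95% interval -0.27 to 0.84) and was not called. With the length correction 2 of the 16 were called lower and the median was -0.08. Without YT-FF 1 or without YT-FF 2, none of the genes in the 7 lists was called, as for nearly all tested genes.

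Other cell types are given by their marker lists, read against the same shares of all tested genes, 12.6% higher and 9.01% lower. *C1qa* was called higher among 6 macrophage markers, whose summed level was 1080 to 1260 CPM in YT-FF and 1560 to 2140 CPM in the libraries labelled YT-AKO. Of 5 B cell markers 2 were lower, among them *Ms4a1* (summed 852 to 988 CPM against 518 to 869 CPM). *Cd4* of 5 T cell markers was lower (summed 224 to 353 CPM against 190 to 466 CPM), as was *Kdr* of 5 endothelial markers (539 to 559 CPM against 385 to 487 CPM). Of 6 fibroblast and progenitor markers, *Pi16* and *Ly6a* were higher and *Dpp4* lower (summed 1780 to 2310 CPM against 2180 to 3170 CPM), and 0 of 4 Schwann cell markers and 0 of the 1 tested epithelial marker were called. The part of these cells in the levels of the 10 regulators was not tested.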

How the data were processed

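The 6 scWAT libraries, 3 per genotype, were grouped by their genotype label. Per the labels and the file headers, the authors aligned paired-end reads to mm10 with HISAT2 and deposited counts of fragments per gene from featureCounts 2.0.1, unstranded, dropping multi-mapped fragments and those on more than 1 gene.

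The count tests ran in R 4.3.3 with edgeR 4.0.16 (filterByExpr with minimum count 10 and total 15, TMM, quasi-likelihood test without robust estimation, Benjamini-Hochberg adjustment over 16807 genes), and limma 3.58.1 and DESeq2 1.42.0 were alternatives. CPM used the totals of tested genes and TMM factors, and TPM summed exon lengths. Ratios used exact permutation tests. Length correction was a spline with 6 degrees of freedom per library. The 10 genes and the gene lists were chosen with earlier results of these data known. Named genes were, per list, up to 4 called genes with the largest change and a mean of at least 1 CPM, plus defining members as examples. Some genes that this rule names are not reported by name.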

Additional observations from a re-analysis of the deposited data

How the results depend on the processing

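With 3 libraries per group, the intervals of *Ppargc1a*, *Ppara* and *Esrrg* allow changes in either direction or of very different size. Over the 16 alternatives (6 fits without a library, 10 others), *Esrra*, *Rxrg* and *Ppargc1b* stayed above 0 and *Ppara* and *Esrrg* below it (*Esrrg* in the 15 that tested it, since the filter on 10 counts per library dropped it). *Ppard*, *Pparg*, *Ppargc1a*, *Rxra* and *Nrip1* changed sign in some and were called in none. Where a call changed, the cause was not tested.

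DESeq2 called 2392 genes lower, and 1337 higher and 658 lower at the study threshold. At an adjusted p under 0.05 it called 2 regulators higher and 1 lower (*Rxrg* 0.91, *Esrrg* -1.52), 1 PPARγ target lower, 2 corepressors higher and 2 regulators of PGC-1α higher. Without a filter, 1217 genes were higher and 507 lower at the study threshold, among them 0 of the 10. At an adjusted p under 0.05 that fit called 2592 genes higher and 1759 lower, with 2 of the 10 higher and 1 lower (*Rxrg* 0.89, *Esrrg* -1.50), 1 PPARγ target lower, 0 corepressors higher, 1 RXR partner higher and 1 lower, and 1 regulator of PGC-1α higher. Requiring 10 counts in each of the 6 libraries called 2 of the 10 higher (*Rxrg* 0.87), put *Ppargc1a* at -0.01 and called 2 PPARγ targets higher. With limma-voom 2 of the 10 were higher (*Rxrg* 0.92) and *Ppargc1a* was -0.06. With upper-quartile normalization *Ppargc1a* was -0.02, 0 corepressors and 1 RXR partner were higher.

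Library totals alone moved the median of all genes from -0.02 to -0.34, with 1137 higher and 2828 lower, none (0) of the 10 higher, *Esrra* at 0.30, *Pparg* at -0.01, *Ppargc1a* at -0.27 and *Wwtr1* at 0.59. The lists moved with it: PPARγ targets 0 higher, 1 lower, median 0.09; PPARα targets median 0.69; PGC-1 and ERR targets 1 lower, median 0.78. Coactivators had 7 lower and a median of -0.96, corepressors 0 higher and -0.87, RXR partners 1 higher and -0.30, and regulators of PGC-1α 7 lower and -0.74.

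The gene length correction called 696 genes lower and put *Ppard* at 0.29, *Rxra* at 0.22 and *Nrip1* at 0.08. It called 2 PPARγ targets higher (PPARα median 0.72), 1 coactivator lower (median -0.23), 0 corepressors higher and 0 lower (-0.18), 1 RXR partner higher, and 2 regulators of PGC-1α lower (-0.08).

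Replicate numbers are shared by the groups in the labels, but deviations of same-numbered libraries correlated at 0.139, -0.134 and -0.0911, so they were not taken as pairs. With the replicate block, 24 genes were higher and 9 lower, and 0 in either direction at the study threshold. The block gave 0 of the 10 higher (*Esrra* 0.60, *Ppargc1a* -0.05), *Yap1* -0.98 and *Wwtr1* 0.89 without a call, 1 PPARα target higher and 0 lower, and 0 calls in the other 6 lists. The replicate block with the length correction gave 46 higher and 19 lower, 0 at the study threshold, and 0 of the 10 higher. In that paired fit *Esrra* was 0.70, *Ppard* 0.29, *Rxra* 0.22, *Nrip1* 0.06, *Yap1* -0.56 and *Wwtr1* 1.03, with 3 PPARα targets higher and 0 lower (median 0.73) and 1 PGC-1 and ERR target higher. The other 5 lists had 0 calls there, with medians of -0.23 for coactivators, -0.17 for corepressors and -0.09 for regulators of PGC-1α. For the 5 within-library ratios, a paired sign-flip test uses the same difference of means, so its direction could not change. Its smallest p is 0.25.

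With each library left out in turn, 0 to 2925 genes were called higher and 0 to 2424 lower, or 0 to 619 and 0 to 324 at the study threshold, with the highest counts without YT-AKO 2. Of the 10, 0 to 1 were called higher and 0 to 1 lower. *Esrra* ran from 0.51 to 0.72, *Esrrg* from -2.07 to -1.05, *Yap1* from -1.08 to -0.90, *Wwtr1* from 0.81 to 1.03, *Ppard* from -0.12 to 0.14, *Pparg* from -0.14 to 0.51, *Ppargc1a* from -0.16 to 0.31 and *Rxra* from -0.09 to 0.02. PPARγ targets had 0 to 6 higher and 0 to 1 lower, PPARα targets 0 to 11 and 0 to 3, PGC-1 and ERR targets 0 to 12 higher (median 0.84 to 1.21), coactivators 0 to 1 higher and 0 to 6 lower. Corepressors had 0 to 2 higher and 0 to 3 lower, RXR partners 0 to 3 higher (median -0.17 to 0.10), and regulators of PGC-1α 0 to 2 higher and 0 to 6 lower.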
